A study of Homo sapiens with 2 samples.

Results

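Expression of 36 genes that carry out or restrain apoptosis was compared between 2 arrays: the proteins of the BCL2 family, the caspases, their inhibitors and the death receptors. A member is a gene on this fixed list, measured by the probe sets to which the platform annotation gives its symbol and no other. Probe sets of this kind, 116 in all, were found for 35 of the 36 members, among 19775 genes measured in this way. BBC3, a BH3-only gene, had none. Both arrays carry the label U87, which is an established cell line from a human glioblastoma. One sample had been transiently transfected with a non-target siRNA, the other with a FOXM1 siRNA. FOXM1 is a forkhead factor that drives genes of cell division. Both were cultured in DMEM medium with serum, transfected with a lipid reagent and harvested at 48 hours. They are called the control-labelled and the FOXM1-labelled array here. The study was set up to compare transcripts between these knockdown and control cells.

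In the mitochondrial route to apoptosis, pro-survival BCL2 proteins hold the effectors BAX and BAK1 in check, and BH3-only proteins relieve that restraint. The effectors then open the outer mitochondrial membrane, cytochrome c joins APAF1 in the apoptosome, and CASP9 and the executioner caspases are activated. Death receptors at the cell surface reach the caspases through FADD and CASP8 instead, and CFLAR and the inhibitor of apoptosis proteins restrain the caspases. Glioblastoma cells are known for resistance to both routes.

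With 1 array per group there was no replicate, so no SD between samples and no test, and each difference compares these arrays only. The error that could be measured lies within the arrays: log2 differences of 2 probe sets of 1 gene differed with an SD of 0.65 over 5476 genes, or 0.46 per probe set. The 3' to 5' signal ratio, a measure of RNA quality, was 6.79 on the control-labelled and 4.21 on the FOXM1-labelled array for ACTB. For GAPDH it was 1.26 and 1.09. Its part in differences between probe sets of 1 gene was not tested. A floor for background was set on each array at the 90th percentile of olfactory receptor probe sets, 60.8 on the control-labelled and 77.7 on the FOXM1-labelled array. Each gene is given by its brightest probe set, and a fold from a gene below the floor on 1 array is a lower bound. FOXM1 read 1520 on the control-labelled and 1343 on the FOXM1-labelled array, a log2 difference of -0.18, which does not check the labels at this precision. The genes CDKN2A, CDKN2B and MTAP, which U87 cells are known to have lost, went against the labelled line: all 3 were above the floor on the control-labelled array and 1 of 3 on the other (CDKN2A, 3467 and 421). The effect of the siRNA and a difference between the cells therefore cannot be told apart in any value that follows. Of 10 glioma and glial markers, 7 were above the floor on each array, with a summed signal of 25750 on the control-labelled and 85815 on the FOXM1-labelled array. That sum was mostly VIM, CD44 and TNC, and the markers did not go one way: CD44 went from 2222 to 29344, SOX2 from 680 to 59.2, below the floor, and OLIG2 read 270 and 266. GFAP, the astrocyte filament, was above it on neither. The summed signal of 6 epithelial markers was 12763 on the control-labelled and 1104 on the FOXM1-labelled array, with 4 of 6 above the floor on each. DSP (9707 and 336) and KRT18 (2655 and 380) made up that fall, while KRT8 read 220 and 265 and EPCAM 48.1, below the floor, and 98.8. None of 4 measured leukocyte markers exceeded the floor in any probe set. Of 4 endothelial markers 1 did on the control-labelled array and, counting any probe set, 3 on the FOXM1-labelled array (2 by their brightest). The part of these marker differences in the results was not tested.

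The cell death genes split in both directions. Of 35 measured members, 32 were above the floor on at least 1 array, 30 of them on both. On the FOXM1-labelled array 6 members exceeded their control-labelled signal by 2-fold or more and 6 fell short of it by as much, each 18.8% of those detected. Of 13865 detected genes, 16.0% were that much higher and 15.4% that much lower. Together these are 37.5% of the detected members, and 31.4% of all detected genes passed 2-fold in either direction, so the share of members is near the background. The higher members were the inflammatory caspases CASP4 and CASP1, the caspase inhibitor CFLAR, the decoy receptor TNFRSF10D, the pro-survival BCL2A1 and the BH3-only BAD. The lower members were the BH3-only HRK, PMAIP1 and BCL2L11, the apoptosome scaffold APAF1, the initiator CASP10 and the effector BAK1. The median log2 difference of the 32 detected members was 0.29, and that of all detected genes 0.01. BIK, BOK and TNFSF10 were above the floor on neither array. This balance moved with the scaling: once the spiked-in hybridisation controls were made equal between the arrays, 4 members were higher and 9 lower, as 11.3% and 23.1% of all detected genes were, and the median of all genes moved to -0.29.

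**Figure D1:**
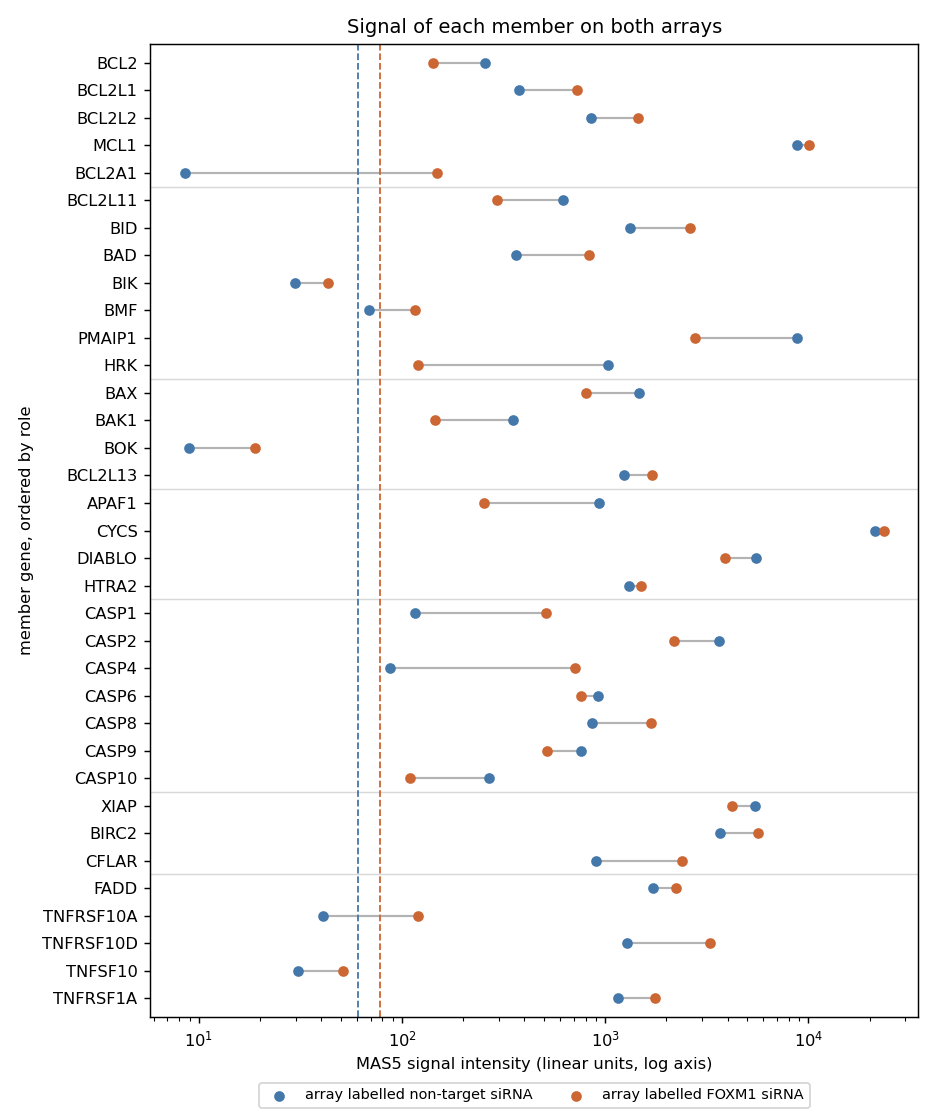
MAS5 signal intensity on a log axis (linear units) of the 35 measured members, grouped by role, on the control-labelled (blue) and FOXM1-labelled (orange) array, with each array's floor as a dashed line. HRK went from 1026 to 120 and CASP4 went from 87.6 to 712, while MCL1 and CYCS read nearly alike on both arrays.

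The stretches of 250 bases before the start sites of 5 members past 2-fold are shown to compare their sequence, from RefSeq on GRCh38.p14. BAK1 and APAF1 stayed past 2-fold in each processing alternative that gave them a value. BCL2L11 fell short of it in 1, and for CASP4 and BCL2A1 a lower bound did so in 1 each. Such a stretch was at hand for 29 of the 36 members. Capitals mark matches on either strand to the AP-1 motif TGANTCA, the interferon regulatory factor motif (GAAA, any 2 bases, GAAA), the NF-kB motif (GGGA, any 2 bases, TTCC), the forkhead motif TGTTTAC or the GC box GGGCGG. The first pair belongs to genes higher on the FOXM1-labelled array, CASP4 (chr11:104968575-104968824, minus strand) and BCL2A1 (chr15:79971197-79971446, minus strand).
CASP4: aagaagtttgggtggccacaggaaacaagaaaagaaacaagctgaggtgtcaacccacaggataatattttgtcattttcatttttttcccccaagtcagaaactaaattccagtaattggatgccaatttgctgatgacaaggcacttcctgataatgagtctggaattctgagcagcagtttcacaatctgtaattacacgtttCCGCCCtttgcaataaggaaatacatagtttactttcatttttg
BCL2A1: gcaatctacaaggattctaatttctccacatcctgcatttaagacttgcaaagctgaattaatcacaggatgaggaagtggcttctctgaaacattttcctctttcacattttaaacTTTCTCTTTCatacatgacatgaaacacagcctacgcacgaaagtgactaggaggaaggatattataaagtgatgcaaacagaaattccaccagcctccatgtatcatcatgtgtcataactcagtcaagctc
The next 3 belong to genes that were lower there, BAK1 (chr6:33580277-33580526, minus strand), BCL2L11 (chr2:111120664-111120913, plus strand) and APAF1 (chr12:98645040-98645289, plus strand).
BAK1: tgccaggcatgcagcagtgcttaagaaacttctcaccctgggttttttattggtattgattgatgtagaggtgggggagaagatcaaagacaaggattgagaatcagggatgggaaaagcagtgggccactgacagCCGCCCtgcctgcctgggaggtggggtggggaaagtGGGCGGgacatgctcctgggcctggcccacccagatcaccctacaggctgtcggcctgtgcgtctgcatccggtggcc
BCL2L11: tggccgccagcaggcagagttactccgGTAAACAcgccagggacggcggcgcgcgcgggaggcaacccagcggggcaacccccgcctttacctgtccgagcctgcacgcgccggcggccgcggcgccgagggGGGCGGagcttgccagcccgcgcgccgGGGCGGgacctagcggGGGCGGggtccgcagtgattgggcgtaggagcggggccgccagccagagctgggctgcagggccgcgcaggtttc
APAF1: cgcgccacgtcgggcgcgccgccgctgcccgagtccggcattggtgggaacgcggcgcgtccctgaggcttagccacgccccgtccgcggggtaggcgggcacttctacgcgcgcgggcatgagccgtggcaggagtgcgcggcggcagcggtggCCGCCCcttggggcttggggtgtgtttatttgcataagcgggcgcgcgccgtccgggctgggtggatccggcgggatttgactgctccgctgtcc
Both stretches of the higher genes are poor in G and C, at 38.0% for CASP4 and 38.8% for BCL2A1, and those of the lower genes richer, at 58.0% for BAK1, 76.8% for BCL2L11 and 73.6% for APAF1. The other lower members with a sequence, PMAIP1 and HRK, had 72.8% and 66.4%, and the other higher members, CFLAR and BAD, 49.6% and 68.0% as the mean over their start sites. The median over 27305 genes was 58.0%, and that of the 17 members under 2-fold 64.4%. BCL2A1 carries 1 interferon regulatory factor match, 133 to 124 bases before the start, and BCL2L11 a forkhead match at 223 to 217 bases. No match overlaps another in these 5 stretches. Over all start sites, matches were found in 4 of 29 members for AP-1 (8.06% of all genes), 2 for the interferon motif (3.71%), 0 for NF-kB (1.73%), 1 for forkhead (3.66%) and 22 for the GC box (46.2%). A match describes the letters only, and its absence says only that those letters are not in this window.

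Among the 5 pro-survival genes, whose proteins bind and restrain BH3-only proteins and effectors, 1 was at least 2-fold higher and none 2-fold lower (16.0% and 15.4% of all detected genes), and the median log2 difference was 0.77. BCL2A1 read 8.56 on the control-labelled array, below the floor, and 148 on the FOXM1-labelled array, at least 2.44-fold higher in its single probe set. With the hybridisation controls equal its log2 bound was 0.98, just under 2-fold. BCL2L1, which encodes BCL-xL, went from 378 to 728 (log2 difference 0.94), and its 3 other probe sets lay below the floor on the control-labelled array and above it on the other. BCL2L2 (BCL-w) went from 850 to 1448, a log2 difference of 0.77. MCL1, the short-lived member of the family, differed little, at 8815 and 10091, and its 4 probe sets above both floors ran from -0.46 to 0.32 in log2 difference. BCL2 itself was the pro-survival gene with a lower signal, 255 against 142 (log2 difference -0.85). It reached 2-fold lower with median centring and with equal hybridisation controls (-1.15). A further BCL2 probe set ran the other way, from 58.5, below the floor, to 122, and the median of its probe sets was 0.08.

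The BH3-only genes, which sense damage and lost growth signals, went both ways: of 6 detected, 3 had a higher and 3 a lower signal, with a median log2 difference of -0.16. At least 2-fold lower were 3 and higher 1, against 15.4% and 16.0% of all detected genes. Of the 3, HRK was under 2-fold over the median of its probe sets, 1 of which gave only a bound. PMAIP1, which encodes NOXA, an antagonist of MCL1, had the most uniform difference of them. It read 8825 and 8409 in its 2 probe sets on the control-labelled array and 2780 and 2802 on the FOXM1-labelled array, 3.17-fold lower in the brighter, with log2 differences of -1.67 and -1.59. HRK read 1026 against 120, 8.58-fold lower, in its brightest probe set. Its other probe sets above both floors did not follow to that extent, at 249 against 165 and 123 against 95.5, log2 differences of -0.60 and -0.36. Another was above the floor on the control-labelled array only, at 101 against 5.88, so its -0.38 is only a bound. The HRK call therefore rests on 1 probe set above both floors. Over the median of its probe sets, which includes that bound, the log2 difference was -0.49. That median does not show whether the difference was under 2-fold.

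BCL2L11, which encodes BIM, a BH3-only protein that binds all pro-survival members, read 617 against 292, 2.11-fold lower. Further probe sets of it read 579 against 221 and 523 against 157, and 3 more were above the floor on the control-labelled array only. One probe set went the other way, from 147 to 222 (log2 difference 0.60), so that the 4 above both floors had an SD of 1.04. With a pseudocount of 50 in place of the floor, BCL2L11 was at -0.96. On the higher side, BAD, which is held inactive by growth factor signalling, went from 363 to 833, 2.30-fold. Its other probe sets gave log2 differences of 0.75 and 0.40, and the median of 0.75 and the hybridisation control scaling (0.90) were both under 2-fold. BID, the substrate through which CASP8 reaches the mitochondria, went from 1325 to 2622 in its brightest probe set, 1.98-fold, just under the threshold. Its other probe sets went from 493 to 1211 and from 338 to 942, 2.46-fold and 2.79-fold higher, and the median over all 3 was past 2-fold (1.30 on the log2 scale). BMF was close to the floor on both arrays, at 68.7 and 116.

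Effectors were lower on the FOXM1-labelled array where detected. BAK1, which forms the pore in the outer membrane, read 353 against 145 in its only probe set, 2.43-fold lower. It stayed past 2-fold in all 8 alternatives that gave it a value, though some could not change the value of a single probe set. BAX, the second pore-forming protein, read 1470 against 806 and 1520 against 688 in its 2 probe sets, 1.82-fold and 2.21-fold lower. The gene as represented missed the threshold at -0.87, and it passed it with the median of both probe sets (-1.01), median centring (-1.02) and equal hybridisation controls (-1.17). BCL2L13, a distant relative known as BCL-rambo, went from 1243 to 1702, and 3 probe sets ran from -0.02 to 0.45 in log2 difference.

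Downstream of the mitochondria, APAF1 stood apart from its partners. The probe set of APAF1, which assembles the apoptosome and recruits CASP9, read 928 on the control-labelled and 253 on the FOXM1-labelled array, 3.66-fold lower. A second probe set read 125 against 18.8, below the floor there. CYCS, cytochrome c, differed little in its brightest probe set, 21210 against 23417, and dimmer ones gave -0.46 and -0.87. DIABLO and HTRA2, which leave the mitochondria to neutralise XIAP, read 5538 against 3876 (-0.51) and 1312 against 1505 (0.20), both under 2-fold.

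Among the 7 caspases, 2 were at least 2-fold higher, both of the inflammatory class, and 1 was lower, where 16.0% and 15.4% of all detected genes were. CASP4, the receptor for intracellular lipopolysaccharide that cleaves gasdermin, read 87.6 on the control-labelled and 712 on the FOXM1-labelled array, 8.13-fold higher. The first signal was near the floor, and the log2 difference of 3.02 became 2.47 with a pseudocount of 50. Its second probe set went from 21.7, below the floor, to 100, a log2 difference of at least 0.72. CASP1, which matures interleukins, went from 116 to 512 and from 75.0 to 497 in the 2 probe sets above both floors, 4.40-fold and 6.62-fold higher. Its 3 other probe sets were below the floor on the control-labelled array and above it on the other, from 30.0 to 310, 23.7 to 145 and 2.73 to 80.7. Both calls rest on probe sets whose IDs end in _x_at or _s_at, which can match several transcripts, and the caspases of this class resemble each other in sequence. Without such probe sets both genes were below the floor on the control-labelled array, and the log2 differences of CASP4 and CASP1 were at least 0.72 and 0.41. These lower bounds are under 2-fold and do not show whether the differences were.

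The initiators of apoptosis showed smaller differences. CASP8, which is activated at death receptors, went from 857 to 1686 (1.97-fold), just under the threshold, and a second probe set from 44.4, below the floor, to 171. CASP10, its close relative, read 268 against 110, 2.44-fold lower, in 1 of 4 probe sets, the others being below the floor on both arrays. With a floor 2 times as high the signal of 110 lay below it, so the log2 difference of -0.78 there is only a bound. With a pseudocount of 50 the log2 difference was -0.99. CASP9, the initiator of the apoptosome, read 763 against 519 and had a log2 difference of -0.56 in both probe sets above the floors. CASP2 was lower by less than 2-fold in each of 5 probe sets above both floors, from -0.74 to -0.27, with 3648 against 2180 in the brightest. CASP6, an executioner, read 924 against 763, and its 2 probe sets had an SD of 0.05.

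**Figure D2:**
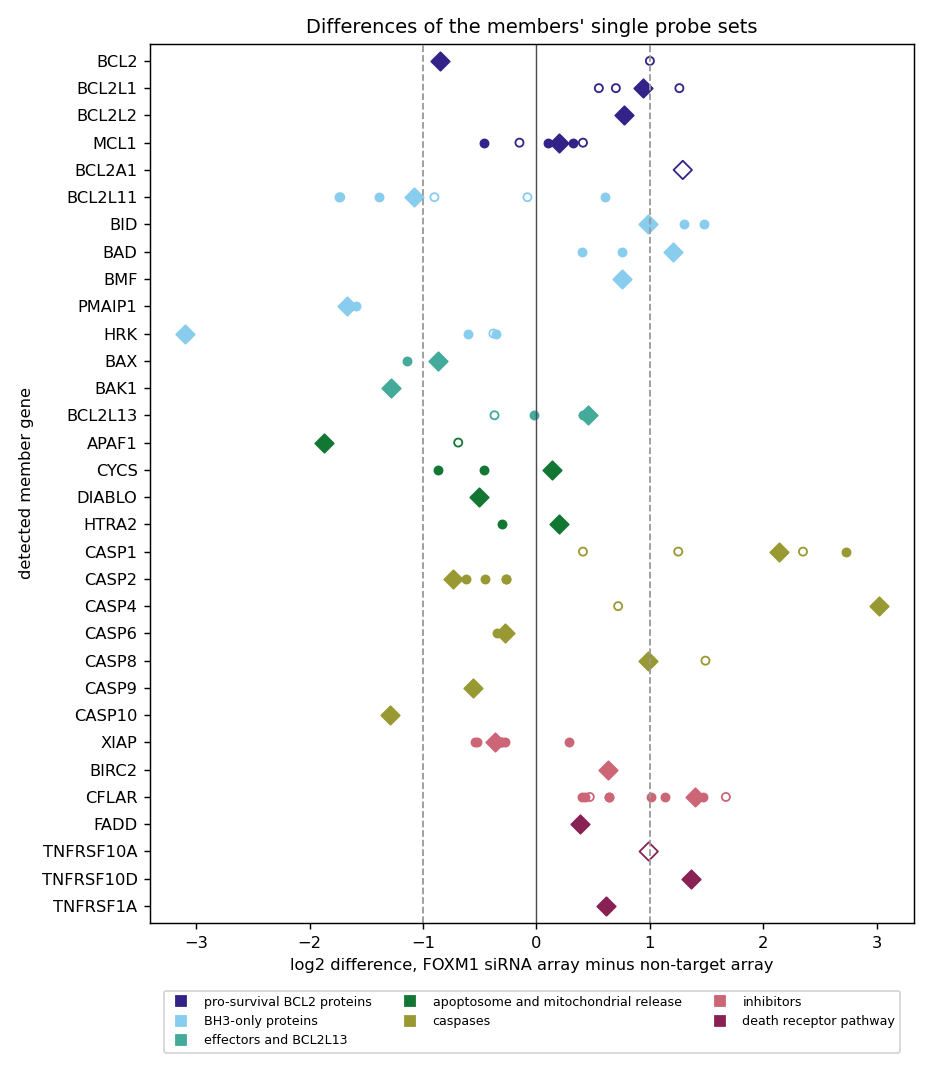
Log2 difference (FOXM1-labelled minus control-labelled array) of each probe set of the 32 detected members above the floor on both arrays (filled) or 1 array (open, a bound), with a diamond for the probe set that represents the gene and dashed lines at 2-fold. Probe sets above the floor on 1 array are left out where raising the other signal to its floor made that other array read higher. All filled points of CFLAR lie to the right of 0 and 6 of 7 of XIAP to the left, while HRK has 1 probe set at -3.10 and its others between -0.60 and -0.36.

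The inhibitors differed from one another. CFLAR encodes FLIP, a CASP8 relative without activity that blocks death receptor signalling. It went from 904 to 2382, 2.64-fold higher, and all 8 of its probe sets above both floors were higher on the FOXM1-labelled array, by 0.40 to 1.47 on the log2 scale with an SD of 0.42. Of these, 4 passed 2-fold, and CFLAR remained past it in all 8 alternatives. The 8 probe sets have IDs ending in _x_at, which can match several transcripts, except 1 that went from 77.0 to 156, near the floor. Over the median of probe sets, and without _x_at and _s_at probe sets, the log2 difference was 1.01, just past 2-fold. XIAP, which binds and blocks CASP9 and the executioners, read 5459 against 4220, and 6 of its 7 probe sets were lower, from -0.54 to -0.28, with 1 at 0.29. BIRC2, a ubiquitin ligase of the tumour necrosis factor receptor complex, went from 3673 to 5668 (log2 difference 0.63).

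All 4 detected genes of the death receptor route had a higher signal on the FOXM1-labelled array. Past 2-fold was 1 of them, where 16.0% of all detected genes were that much higher. Their median log2 difference was 0.80, against 0.01 over all detected genes. With equal hybridisation controls FADD was at 0.08, TNFRSF1A at 0.30, TNFRSF10A at 0.68 (a bound) and TNFRSF10D at 1.06. The median of all detected genes was then -0.29. Of 7 detected genes of this route that are no members, all but TNFRSF21 and RIPK3 were higher too. TNFRSF21 read 1181 and 829 (-0.51) and RIPK3, near or below the floor, 64.0 and 3.91. Both were named after their values were seen. TNFRSF10D, a receptor for the ligand TRAIL with a truncated death domain, went from 1284 to 3295, 2.57-fold. It kept its call in all 8 alternatives, though some could not change the value of its only detected probe set. TNFRSF10A, a TRAIL receptor that does signal death, went from 41.0, below the floor, to 120, and its bound of 1.98-fold lay just under the threshold. The ligand gene TNFSF10 was below the floor on both arrays, at 30.6 and 51.3. FADD, the adaptor between receptor and CASP8, went from 1719 to 2239, and TNFRSF1A, the main receptor for tumour necrosis factor, from 1160 to 1767, log2 differences of 0.38 and 0.61.

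Across the 16 members with at least 2 probe sets above both floors, all probe sets lay on the same side of 0 in 10 and on both sides in 6, and in 0 members did probe sets pass 2-fold in opposite directions. Of the 116 member probe sets, 69 were above the floor on both arrays, 24 on 1 array and 23 on neither. Differences of the brightest probe set that were past 2-fold in all alternatives giving a value were those of PMAIP1, BAK1, APAF1, CFLAR and TNFRSF10D. PMAIP1 and APAF1 had a value in 7 alternatives, since all their detected probe sets end in _s_at and could not be tried without these. BAK1 and TNFRSF10D had 1 detected probe set each, above both floors and of neither ending. The alternatives that dropped the floor, took the median of probe sets or left probe sets out could not change their values. The plot of members by processing setting shows which of the others crossed the threshold.

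**Figure D3:**
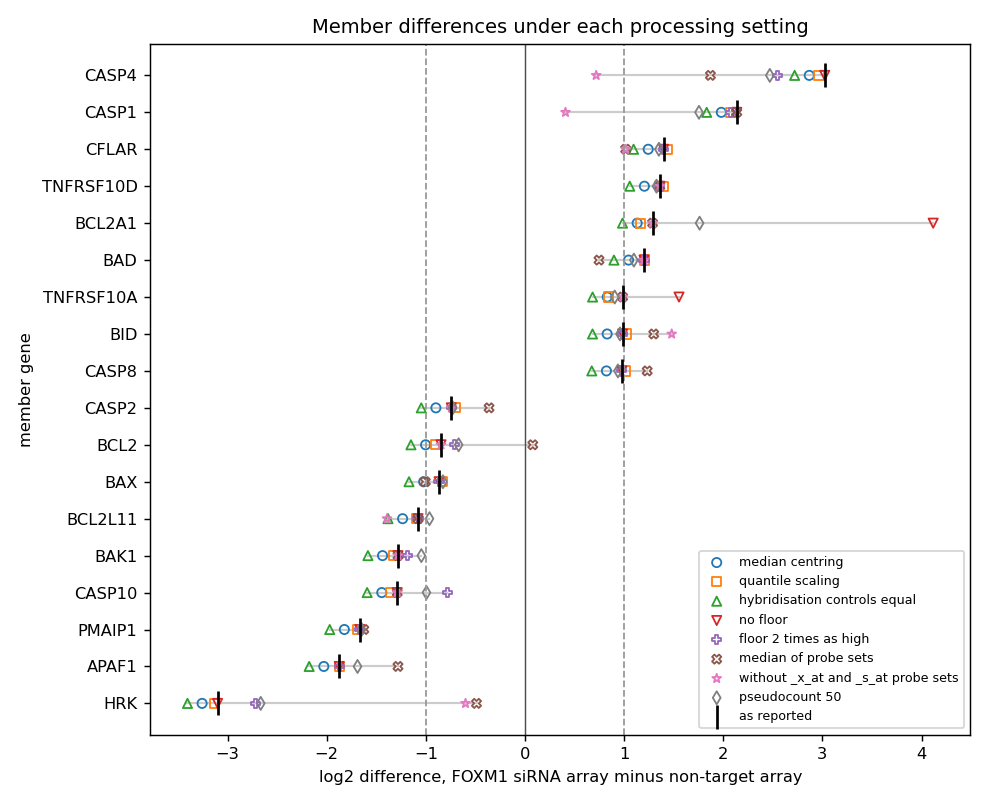
Log2 difference of members past 2-fold in at least 1 setting, as reported (black bar) and under up to 8 processing alternatives (open symbols), with dashed lines at 2-fold. CFLAR, TNFRSF10D and BAK1 stay outside the lines in all 8, PMAIP1 and APAF1 in the 7 that gave them a value. For BAK1 and TNFRSF10D, with 1 detected probe set each, several settings could only return the value as reported. HRK, CASP1 and CASP4 move inside the lines when probe sets ending in _x_at and _s_at are left out. The CASP1 and CASP4 points of that setting are lower bounds, and it gave no value for PMAIP1 and APAF1.

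Other cell death genes, a list of 50 that are no members, also differed in both directions. Of 43 with a probe set 32 were detected, 9 of them 2-fold or more higher on the FOXM1-labelled array and 3 lower, together 37.5%. Of all detected genes 16.0% were that much higher and 15.4% lower, together 31.4%. With equal hybridisation controls 7 were higher and 6 lower, where 11.3% and 23.1% of all detected genes were. Their median log2 difference was 0.24. It counts TP73 (64.8 and 44.3) and RIPK3 as higher, although their signals were lower on the FOXM1-labelled array. Raising these signals to the higher floor of that array reversed the direction, and TP73 was named after its value was seen. GSDME, MLKL and GSDMD had the largest differences. GSDME, a gasdermin that forms pores once cleaved, went from 555 to 5964, 10.8-fold. MLKL, the executioner of necroptosis, went from 41.6, below the floor, to 629, at least 10.3-fold. GSDMD, the gasdermin cleaved by CASP1 and CASP4, went from 79.0, near the floor, to 362, 4.58-fold. Its log2 difference of 2.20 became 1.67 with a pseudocount of 50 and a bound of 1.57 with a floor 2 times as high. RIPK3, the kinase that activates MLKL, was near or below the floor at 64.0 and 3.91, and PYCARD, the adaptor of inflammasomes that recruits CASP1, was below it on both arrays at 4.94 and 19.6; both were named after their values were seen.

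TRADD, the adaptor of TNFRSF1A, went from 335 to 1117, 3.34-fold, with a second probe set at 1.75 on the log2 scale. TNFRSF25, a death receptor, went from 43.1, below the floor, to 168, at least 2.76-fold. Further probe sets went from 21.4 to 225 and from 11.1 to 135, both below the floor on the control-labelled array. The 1 probe set above both floors gave only 0.36, at 63.1 and 80.7, near the floors. With a floor 2 times as high the bound was only 0.47. The hypoxia-inducible BNIP3, a mitophagy receptor, went from 6465 to 21570, 3.34-fold. On the lower side, AIFM1, a mitochondrial flavoprotein, read 4114 against 1389, 2.96-fold lower. BAG1, a co-chaperone that binds BCL2, read 1515 against 648, 2.34-fold lower, with all 3 probe sets past 2-fold. DFFB, the nuclease that cuts DNA in apoptosis, read 469 against 231, 2.03-fold lower, and was at -0.88 with a pseudocount of 50, under 2-fold. The receptor genes FAS and TNFRSF10B were under 2-fold, at 726 against 1252 (0.79) and 4909 against 6512 (0.41).

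**Figure D4:**
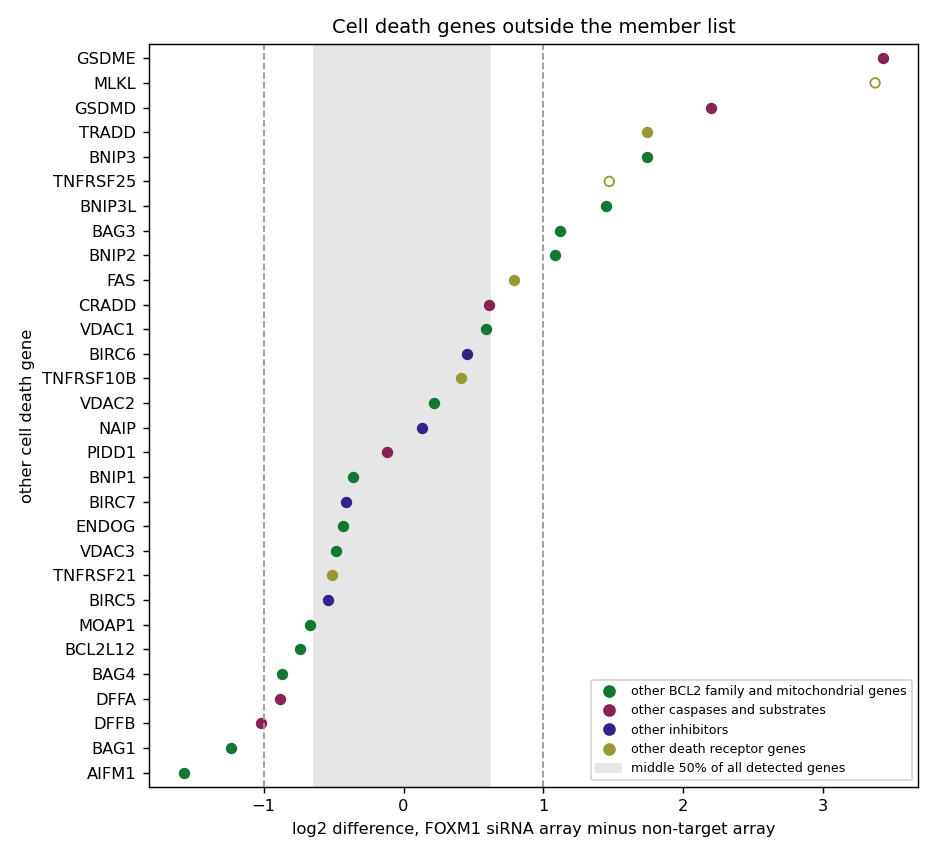
Log2 difference (FOXM1-labelled minus control-labelled array) of the detected cell death genes outside the member list that have a fold or a bound (open), with 2-fold as dashed lines and the middle 50% of all detected genes, -0.64 to 0.62, in grey. GSDME at 3.43 and MLKL at no less than 3.37 lie farthest to the right and AIFM1 at -1.57 farthest to the left.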

How the data were processed

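Total RNA of 2 samples was measured on 1 array each. The authors deposited 1 intensity per probe set and array, on a linear scale, made with MAS5 per the submitters' processing notes; which version was used is not given in the sources used here. Both arrays had the same trimmed mean intensity of 500.07 (2% trimmed from either end), so each had been scaled as a whole. Of 54675 probe sets, 41097 had 1 gene symbol in the platform annotation and 1801 several; symbols were updated by gene ID (99.9% matched, GRCh38.p14 gene table). The floor was the 90th percentile of 135 olfactory receptor probe sets; lower signals were raised to it before log2. The probe set with the greatest mean log2 signal stood for its gene, which counted as detected when that probe set exceeded the floor on either array. Calls use 2-fold. The number of arrays limits the precision, and no test was possible. The named genes were FOXM1, the 9p21 genes, all members, up to 6 other cell death genes per direction and FAS and TNFRSF10B whatever their values. Some genes of the fixed lists are not reported here. Other probe sets of a gene are given by range. Members and lists were chosen with earlier results of these data known. The calculation was tested on simulated data. Alternatives were median centring, quantile scaling, equal hybridisation controls (18 probe sets), no floor, the median of probe sets above either floor, a doubled floor (2 times), no _x_at or _s_at probe sets, a pseudocount of 50 and a 1.5-fold threshold. Python 3.11.15, numpy 2.4.6, pandas 2.3.3 and matplotlib 3.10.9 were used.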

Additional observations from a re-analysis of the deposited data

Results flagged for a closer look

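A probe set that carries the symbols of both CASP1 and CARD16, and so entered no gene value above, read 12.3 on the control-labelled array, below its floor, and 305 on the FOXM1-labelled array, at least 5.01-fold higher. It stands out because it is a signal outside the measurements reported for the members. CARD16 and CASP1 share sequence, so this probe set cannot be assigned to either gene.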

How the results depend on the processing

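No paired analysis was possible because each group holds 1 array, and no replicate could be left out. The counts of 6 higher and 6 lower members stayed within 1.5 times under the scaling and floor alternatives. They reached that limit with equal hybridisation controls, at 4 higher and 9 lower, against 11.3% and 23.1% of all detected genes. A pseudocount of 50 reached it too, with 4 lower, against 15.4%. They moved further without _x_at and _s_at probe sets, with 3 lower of 23 detected members, against 15.1% of all detected genes. At the 1.5-fold threshold 14 of 32 members were higher, where 26.1% of all detected genes were. The median log2 difference of the members, 0.29, was 0.13 with median centring, -0.01 with equal hybridisation controls, 0.17 with the median of probe sets and 0.45 without _x_at and _s_at probe sets. The 3 lower genes among the other cell death genes became 5 with median centring and 6 with equal hybridisation controls. They became 1 without _x_at and _s_at probe sets (of 22 detected) and 7 at the 1.5-fold threshold. Of all detected genes, 19.1%, 23.1%, 15.1% and 26.8% were lower in these 4 settings. Setting the controls equal shifts each difference by the same 0.30, and leaving out probe sets leaves fewer genes; for the other values the cause was not tested. Of 359 values of 47 single genes under the alternatives, 329 moved by less than the SD per probe set of 0.46, 30 by more, and 0 of the genes past 2-fold changed sign. Signals near the floor, such as those of BMF, CASP10 and BCL2A1 and the control-labelled signals of CASP4 and GSDMD, limit what can be read from them.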

Other observations

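The genes beside the 12 members past 2-fold, by the RefSeq gene order, passed 2-fold about as often as all detected genes, 5 of 16 detected neighbours against 31.4%. Of these 5, 4 went in the opposite direction to the member and 1 in the same direction, and 2 of the 4 are CFLAR and CASP10, each counted as the other's neighbour. CFLAR, CASP10 and CASP8 lie side by side, and their log2 differences were 1.40, -1.29 and 0.98. The neighbour that went the same way was CARD16, beside CASP1, which went from 38.8, below the floor, to 340 (log2 difference at least 2.48). ITPR3, a calcium channel gene beside BAK1, went from 189 to 1494 (2.98), and CCBE1, beside PMAIP1, from 77.2 to 273 (1.82), both opposite to the member.

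BBC3, which encodes the BH3-only protein PUMA, had 1 probe set, which carries the symbols of 2 microRNA genes too. It read 307 on the control-labelled and 130 on the FOXM1-labelled array, 2.36-fold lower. A probe set shared by BCL2L2, PABPN1 and their read-through transcript read 9088 against 6223 (-0.55), whereas the BCL2L2 probe set with a single symbol was higher at 0.77.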
